A study of Mus musculus with 18 samples.

Results

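The genes described here are Trp53, which encodes the transcription factor p53, and the genes of a list of its direct targets and close regulators, 32 genes in all. They were picked by gene symbol, and all 32 were found among the 55453 gene names in the count tables. All 32 also passed the filter on low counts, which left 20787 genes to test. The data are RNA-Seq read counts from colon epithelium of Swiss Webster mice, laser-microdissected out of fixed tissue embedded in paraffin. All mice of the groups used here received the carcinogen azoxymethane (AOM) at 7 weeks of age and, from 9 weeks of age, 4 cycles of dextran sulfate sodium (DSS), each of 7 days at 2% in the drinking water and 14 days of plain water. The chow held 2 mg/kg folic acid (FA) until 11 weeks of age and then 8 or 0 mg/kg for 16 weeks, until the end at 27 weeks. The 18 libraries form 4 groups: polypoid dysplasia at 8 mg/kg FA (8P, 5 libraries), polypoid dysplasia at 0 mg/kg FA (0P, 4 libraries), non-dysplastic epithelium at 8 mg/kg FA (8ND, 5 libraries) and non-dysplastic epithelium at 0 mg/kg FA (0ND, 4 libraries). No group used here lacked AOM or DSS, so every difference is between mice with colitis. The labels do not say that each library came from a separate mouse, nor whether a P and an ND library with the same number share a mouse, so the p-values measure the spread between these libraries.

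p53 is kept low in unstressed cells by Mdm2, the ubiquitin ligase that marks it for degradation, and by the related protein Mdm4, which masks its activation domain. DNA damage and other stresses release p53, which then binds paired motifs near its target genes and activates a program of cell cycle arrest, DNA repair and cell death. Mdm2 is itself a target, so the pathway holds its own negative feedback. In the intestine, p53 is best known from the death of crypt cells after irradiation and from its mutation during the development of colorectal cancer, and in people with colitis that mutation is known to arise early. The amount of Trp53 mRNA does not measure p53 protein, which is mainly controlled by degradation, and the counts do not say whether a lesion carried a Trp53 mutation.

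The p53 binding motif is printed for the members that held the strongest match, because these sequences mark the genes of the list with a p53 site beside a RefSeq start of transcription. Promoter windows of 300 bases, reaching 250 bases before the start, were taken from RefSeq (GRCm38.p6, the mm10 assembly), which held 34 windows for 24 of the 32 members. The p53 decamer consensus, a motif of 10 bases that reads the same on both strands, was present without a mismatch in 11 of the 34 member windows (32.4%), against 2745 of the 32851 windows of all genes (8.36%). A full site means 2 decamers with at most 1 base between them and at most 2 mismatches in all. The C and the G that the consensus fixes had to be present in both decamers. Such a site was present in 4 of the 34 member windows (11.8%), against 224 of all windows (0.682%). The list was made of known p53 targets and regulators, so these shares describe it and are no test. The windows of all genes include those of the members. Of the 11 windows, 2 belong to Aen and share a single match. The 5 full sites of Cdkn1a, Ccng1, Bax and Gtse1 follow, 5′ to 3′ on the strand of the gene, with the decamers in capitals and a base between them in lower case. The 2 sites of Gtse1 overlap and share a decamer.
Cdkn1a, chr17:29090928-29090947, 1 mismatch: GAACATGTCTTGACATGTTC
Ccng1, chr11:40755462-40755481, 1 mismatch: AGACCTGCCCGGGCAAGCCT
Bax, chr7:45467079-45467099, 2 mismatches: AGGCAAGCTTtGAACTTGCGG
Gtse1, chr15:85859945-85859964, 1 mismatch: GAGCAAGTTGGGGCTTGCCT
Gtse1, chr15:85859955-85859975, 1 mismatch: GGGCTTGCCTcTGACTTGCCT

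The sites lie at different distances from the start. The site of Cdkn1a begins at position -51 (the first transcribed base is position 0), that of Ccng1 at -195 and that of Bax at -201, while the sites of Gtse1 begin at -1 and 9. Each distance is from the start of the window that holds the site. Cdkn1a has another RefSeq start downstream, with a window at chr17:29093519-29093818. Gtse1 has another start upstream, with a window at chr15:85859457-85859756. Neither of these windows holds an exact decamer or a full site. The upstream 220 bases of the windows of Cdkn1a, Ccng1 and Bax show the sites in their surroundings, with the decamers of full sites and other exact decamers in capitals.
Cdkn1a, chr17:29090729-29090948, plus strand: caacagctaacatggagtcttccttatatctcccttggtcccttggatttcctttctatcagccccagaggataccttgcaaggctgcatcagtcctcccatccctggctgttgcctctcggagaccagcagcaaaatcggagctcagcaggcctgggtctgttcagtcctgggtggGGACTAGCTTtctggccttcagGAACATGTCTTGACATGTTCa
Ccng1, chr11:40755317-40755536, minus strand: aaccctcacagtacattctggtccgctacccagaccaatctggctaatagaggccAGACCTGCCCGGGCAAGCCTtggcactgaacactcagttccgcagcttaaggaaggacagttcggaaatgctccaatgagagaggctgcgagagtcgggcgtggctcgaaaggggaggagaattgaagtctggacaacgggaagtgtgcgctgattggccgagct
Bax, chr7:45466929-45467148, minus strand: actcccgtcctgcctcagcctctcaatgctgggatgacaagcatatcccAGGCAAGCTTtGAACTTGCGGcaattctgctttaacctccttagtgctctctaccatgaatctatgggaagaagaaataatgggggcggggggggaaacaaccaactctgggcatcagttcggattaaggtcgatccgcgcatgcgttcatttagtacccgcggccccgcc

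An exact decamer without a full site was found in windows of Trp53, Mdm2, Aen, Ei24, Sesn1 and Polk. A match is a description of the letters and no evidence of binding in this tissue. Of the genes with a full site, Ccng1, Bax and Gtse1 were higher in polypoid dysplasia at both FA doses, and Cdkn1a passed the test in no comparison. Plk2, Phlda3, Eda2r, Aen, Trp53, Psrc1 and Ephx1 were also higher at both doses, and their windows held no full site. Xpc and Zmat3 were higher at both doses too, but had no RefSeq window to search. Only the windows of 300 bases were searched, so a site farther from a start would have been missed.

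Library totals ranged from 3500947 to 17048524 counts assigned to genes (median 10292934.5), and the 32 genes together took 5166 to 26305 counts of a library. Levels are given as CPM (counts scaled to a common library size by edgeR's trimmed mean of M-values), and differences as log2 fold changes with their standard error from edgeR's quasi-likelihood test, adjusted over all 20787 genes by Benjamini-Hochberg. Only the summed marker levels are CPM of the library total, without the trimmed mean scaling. A gene was called at an adjusted p below 0.05. On the first principal component over all tested genes, the library 0P 1 (-30.46) stood nearer to the ND libraries than the other P libraries did (-75.56 to -50.74), and 8ND 1 and 8ND 2 (27.83 and 27.88) stood nearer to the P libraries than the other ND libraries did (48.59 to 82.77). The library 0P 1 was the lowest of its 4 in 19 of the 32 genes, and 8ND 3 the lowest of its 5 in 15. Summed markers of 9 epithelial genes lay between 3016 and 5569 CPM in every library, but markers of other cell types were present throughout. Smooth muscle markers summed to 256 to 597 CPM in 8P and 357 to 708 CPM in 0P, against 1004 to 1725 CPM in 8ND and 999.6 to 2537 CPM in 0ND. Markers of B and plasma cells summed to 369 to 2304 CPM in 8P and 712 to 1063 CPM in 0P, against 2811 to 6687 CPM in 8ND and 1911 to 3594 CPM in 0ND. No marker was at 0 in all libraries of a group.

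Levels of different genes were compared per kilobase of exon. On this scale Perp, a desmosome protein that also takes part in p53-dependent cell death, was the most abundant of the list in 0P, 8ND and 0ND (47.1, 58.9 and 60.3 CPM per kb), and Ccng1, the cyclin G1 gene that forms part of the feedback on p53, in 8P (51.3 CPM per kb). Trp53inp1, a stress-induced nuclear protein of the p53 program, and Btg2, an antiproliferative gene, followed, with 49.1 and 29.7 CPM per kb in 8P. Trp53 itself lay at 10.0, 12.1, 7.28 and 6.47 CPM per kb in 8P, 0P, 8ND and 0ND. Gdf15, a secreted member of the TGF-beta family, was close to the detection limit, with 48 reads over all 8P, 74 over all 0P, 17 over all 8ND and 18 over all 0ND libraries. The spread between libraries was moderate: the median coefficient of variation of the 32 genes was 15.8% in 8P, 18.8% in 0P, 18.5% in 8ND and 16.8% in 0ND, against 23.8%, 20.5%, 22.6% and 20.4% over all tested genes.

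The first question was how the p53 genes differed between polypoid dysplasia and non-dysplastic epithelium without dietary FA. In 0P against 0ND, 15 of the 32 genes were higher and 4 lower, which is 59.4% called, while 31.6% of all tested genes were called (15.9% higher and 15.7% lower). The rise included Trp53 itself, its feedback genes Mdm2 and Ccng1, the death genes Bax, Bbc3, Aen and Pidd1, the receptor Eda2r, and Psrc1, Phlda3 and Plk2 at the top. The median log2 fold change of the 32 genes was 0.41, beside -0.03 over all tested genes. Of the 32, 16 did not overlap between the groups and were higher in 0P, and 3 were lower, while 16.2% and 16.1% of all genes did so. At least 2-fold, 8 genes were called, all higher (15.9% of all genes in either direction). Of all 20787 tested genes, 1537 were called at least 2-fold higher and 1763 at least 2-fold lower. In these bulk libraries, fewer cells of a type and less RNA per cell cannot be told apart. All 6 smooth muscle markers, 4 of the 9 epithelial markers and 2 of the 8 B and plasma cell markers were lower in 0P, and none of these was higher. Of 7 fibroblast markers, 4 were higher and 2 lower, and their summed level was 1371 to 1794 CPM in 0P, against 940.4 to 1025 CPM in 0ND, without overlap. Of 6 neutrophil markers, 4 were higher and 1 lower (summed level 29.6 to 43.2 CPM in 0P, against 19.2 to 30.9 CPM in 0ND), and of 8 macrophage and dendritic cell markers, 2 were higher and none lower (167 to 196 CPM in 0P, against 114 to 158 CPM in 0ND). Of 7 T and NK cell markers and 6 endothelial markers, 1 was higher and 2 were lower in each list. The part of these cell types in the result was not tested. Without 0P 1, 20 genes were called: Gdf15 (higher) and Perp (lower) were added and Bbc3 was lost.

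At 8 mg/kg FA the same contrast gave 14 higher and 1 lower of the 32 genes in 8P against 8ND (46.9%), while 28.2% of all genes were called (13.9% higher and 14.3% lower). The median was 0.43, beside 0.0020 over all genes. The groups did not overlap for 10 genes that were higher in 8P and 1 that was lower (8.26% and 8.94% of all genes). At 2-fold or more, 3 genes were called, all higher (12.4% of all genes in either direction). Of all 20787 tested genes, 1071 were called higher and 1497 lower by that rule. Here too all 6 smooth muscle markers were lower, and 7 of the 9 epithelial markers and 4 of the 8 B and plasma cell markers were lower in 8P, with none higher. Of the 6 neutrophil markers, 4 were higher, all at least 2-fold, and 1 was lower (summed level 22.2 to 86.8 CPM in 8P, against 17.4 to 27.8 CPM in 8ND). Of the 7 fibroblast markers and of the 7 T and NK cell markers, 1 was higher and 1 lower in each list, while 1 of 8 macrophage and dendritic cell markers and 2 of 6 endothelial markers were lower and none was higher. The part of these cell types was not tested here either. Without 8ND 1 and 8ND 2, which stood nearest to the P libraries, 13 genes were called. Sesn1 (lower in 8P) was added, and Gtse1, Pmaip1 and Xpc were lost.

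**Figure D1:**
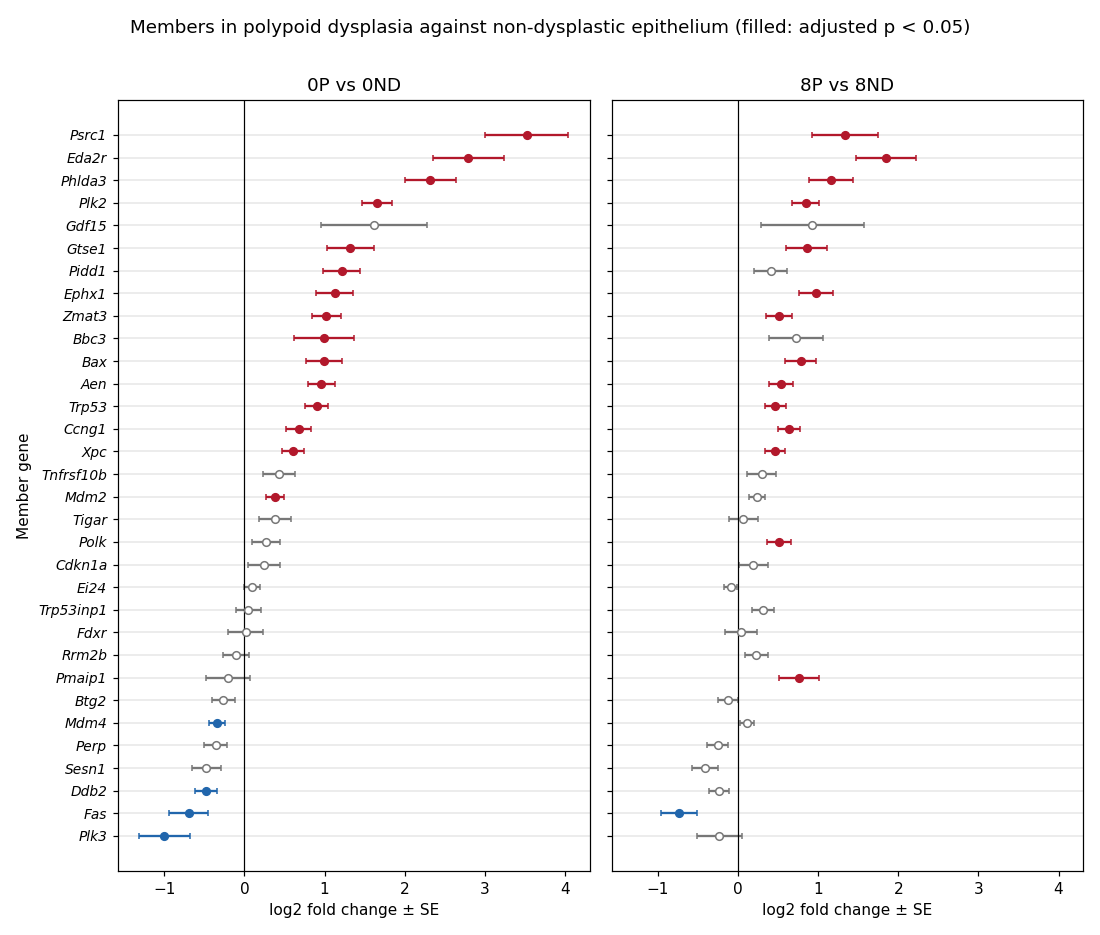
log2 fold change ± SE of each of the 32 genes in 0P against 0ND (left) and 8P against 8ND (right), ordered by the value on the left; filled points have an adjusted p below 0.05 (red higher, blue lower) and open points do not. Psrc1, Eda2r, Phlda3 and Plk2 lead on the left (1.65 to 3.52), while Fas is filled below 0 on both sides and Cdkn1a is open on both.

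Of the 4 genes that make up p53 and its immediate regulators, 3 were higher and 1 lower in 0P against 0ND, and 2 were higher in 8P against 8ND. The counts by role, here and below, are of 3 to 8 genes each and were not tested as sets. Beside them stand 15.9% higher and 15.7% lower of all tested genes in 0P against 0ND. In 8P against 8ND these shares were 13.9% and 14.3%. Trp53 (chr11:69580359-69591873, plus strand) was measured at 36.9, 45.2, 40.6, 43.6 and 36.4 CPM in the 8P libraries and at 37.7, 54.0, 50.6 and 52.8 CPM in 0P. The ND libraries held 29.9, 33.9, 25.9, 31.5 and 26.1 CPM (8ND) and 27.3, 31.4, 20.2 and 25.8 CPM (0ND). Every P library was above every ND library, and 0P 1 was at the level of the 8P libraries. Trp53 was 1.87-fold higher in 0P than in 0ND (log2 fold change of 0.90 ± 0.15 (SE), adjusted p = 0.000115) and 1.38-fold higher in 8P than in 8ND (log2 fold change of 0.46 ± 0.13 (SE), adjusted p = 0.0117). The tables also hold pseudogene rows for Trp53 and Mdm4, and reads that match a gene and its pseudogene cannot be assigned with certainty.

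Mdm2 (chr10:117688875-117710758, minus strand), the main negative regulator of p53, had 86.3, 78.9, 90.2, 90.1 and 88.5 CPM in 8P and 76.4, 83.4, 88.5 and 86.1 CPM in 0P. Its levels were 77.7, 75.1, 64.6, 86.2 and 65.3 CPM in 8ND and 60.3, 55.4, 74.0 and 66.2 CPM in 0ND. The 0P and 0ND libraries did not overlap, with 0P 1 just above the highest 0ND library, and the 8ND libraries reached into the range of 8P. Mdm2 was higher in 0P than in 0ND (log2 fold change of 0.39 ± 0.11 (SE), adjusted p = 0.0107), a small difference of 1.31-fold. In 8P against 8ND it missed the threshold (log2 fold change of 0.24 ± 0.10 (SE), adjusted p = 0.0779). It passed without 8P 2 (adjusted p = 0.049), without 8ND 4 (adjusted p = 0.0329) and with DESeq2 (adjusted p = 0.0383).

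Mdm4 (chr1:132959484-133030561, minus strand), the second inhibitor of p53, moved the other way at 0 mg/kg FA. It had 279, 248, 319, 284 and 278 CPM in 8P and 248, 235, 249 and 207 CPM in 0P, with 244, 289.9, 261, 269 and 243 CPM in 8ND and 310.0, 259, 306 and 317 CPM in 0ND. All 4 of the 0P libraries were below the lowest 0ND library, and the fitted difference was small (log2 fold change of -0.34 ± 0.10 (SE), adjusted p = 0.0133). The call was lost without 0P 4. In 8P against 8ND the groups overlapped and Mdm4 was not called (log2 fold change of 0.11 ± 0.091 (SE), adjusted p = 0.408).

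Ccng1 (chr11:40748552-40755311, minus strand), which carries the full site printed above, had 151, 146, 174, 228 and 203 CPM in 8P and 135, 132, 152 and 204 CPM in 0P. In ND it had 132, 117, 93.9, 123 and 115 CPM (8ND) and 102, 93.3, 103 and 90.6 CPM (0ND). The groups of each FA dose did not overlap. Ccng1 was higher in 0P than in 0ND (log2 fold change of 0.68 ± 0.15 (SE), adjusted p = 0.00226) and in 8P than in 8ND (log2 fold change of 0.63 ± 0.14 (SE), adjusted p = 0.00191).

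**Figure D2:**
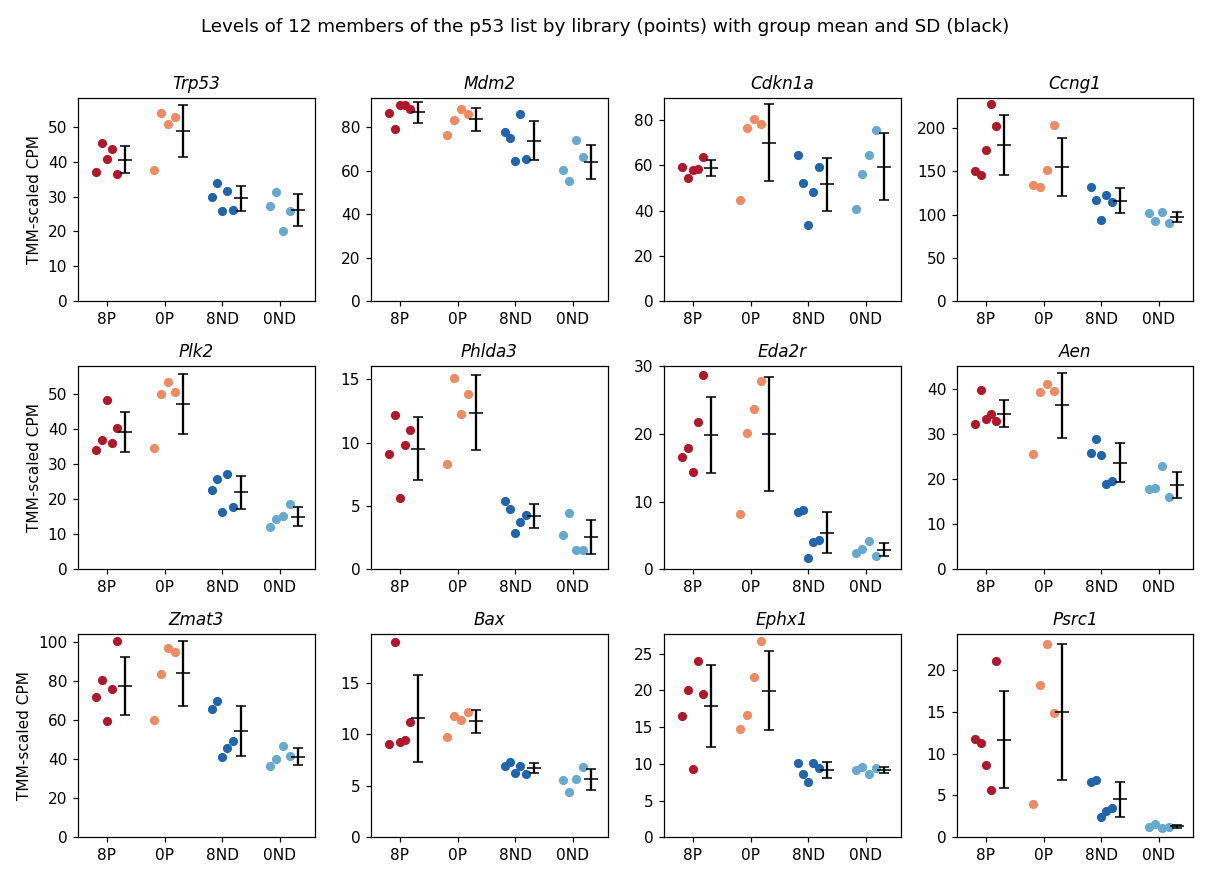
CPM of 12 of the genes in each library (points), with the group mean and SD in black; groups run from 8P and 0P to 8ND and 0ND on the x axis, and each y axis starts at 0. The P libraries of Trp53 (36.4 to 54.0 CPM) lie above all ND libraries (20.2 to 33.9 CPM), the 4 groups of Cdkn1a overlap, and 0P 1 is the lowest 0P point of Trp53, Mdm2, Cdkn1a, Plk2, Phlda3, Eda2r, Aen, Zmat3, Bax, Ephx1 and Psrc1.

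Among the 6 genes that act on cell division, 3 were higher and 1 lower in 0P against 0ND. In 8P against 8ND, 3 were higher (over all genes, 15.9% and 13.9% were higher in these contrasts). Cdkn1a (chr17:29090976-29100727, plus strand) encodes p21, the inhibitor of cyclin-dependent kinases and the best known p53 target. Its levels were 59.3, 54.2, 57.9, 58.5 and 63.7 CPM in 8P and 44.8, 76.5, 80.5 and 77.9 CPM in 0P. The ND libraries had 64.3, 52.1, 33.5, 48.3 and 59.2 CPM (8ND) and 40.7, 56.1, 64.4 and 75.7 CPM (0ND). The groups overlapped in every comparison, and 0P 1 lay far below the other 0P libraries. Neither difference was called, in 0P against 0ND (log2 fold change of 0.24 ± 0.20 (SE), adjusted p = 0.402) or in 8P against 8ND (log2 fold change of 0.19 ± 0.18 (SE), adjusted p = 0.475). Without 0P 1 the first value was 0.41 (adjusted p = 0.116). The Cdkn1a exons overlap an annotated transcript of the opposite strand over 7.7% of their length, and the strand setting of the counting is not given in the sources used here.

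Plk2 (chr13:110395046-110400844, plus strand), a polo-like kinase of centriole duplication and the stress response, had the smallest p of the 32 genes in both contrasts. It was measured at 34.0, 37.0, 48.4, 36.0 and 40.3 CPM in 8P and 34.6, 50.02, 53.5 and 50.6 CPM in 0P, against 22.7, 25.8, 16.3, 27.2 and 17.8 CPM in 8ND and 11.98, 14.5, 15.2 and 18.5 CPM in 0ND. Every P library was above every ND library. Plk2 was 3.14-fold higher in 0P than in 0ND (log2 fold change of 1.65 ± 0.19 (SE), adjusted p = 4.24e-06) and 1.79-fold higher in 8P than in 8ND (log2 fold change of 0.84 ± 0.16 (SE), adjusted p = 0.000777). Its relative Plk3, another stress-responsive polo-like kinase, was lower in 0P than in 0ND (log2 fold change -0.998, adjusted p = 0.0195). That difference rests on 0ND 4, at 32.7 CPM beside 8.82 to 12.6 CPM in the other 0ND libraries, and the call was lost without it, without 0P 3 and without 0P 4.

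Psrc1 (chr3:108383839-108388231, plus strand), a microtubule-binding protein of the mitotic spindle, had the highest fold change of the list in 0P against 0ND, while Eda2r had it in 8P against 8ND. Its levels were 11.8, 11.2, 8.61, 5.63 and 21.1 CPM in 8P and 3.96, 18.2, 23.1 and 14.8 CPM in 0P. They were 6.64, 6.82, 2.47, 3.20 and 3.49 CPM in 8ND and 1.27, 1.59, 1.07 and 1.30 CPM in 0ND, the last from 50 reads in all. The lowest 0P library, 0P 1, was still above every 0ND library, while 8P 4 lay below 8ND 1 and 8ND 2. Psrc1 was 11.5-fold higher in 0P than in 0ND (log2 fold change of 3.52 ± 0.52 (SE), adjusted p = 5.97e-05) and 2.53-fold higher in 8P than in 8ND (log2 fold change of 1.34 ± 0.41 (SE), adjusted p = 0.0204). The second call was lost without 8P 5, without 8ND 3, without 8ND 5, with no filter on low counts and with limma-voom, and its log2 fold change ranged from 1.02 to 1.93 over all alternatives. Gtse1, a G2 and S phase protein that can move p53 out of the nucleus, was higher in both contrasts (log2 fold change 1.32 in 0P and 0.85 in 8P), and Btg2 was called in neither (-0.26 and -0.13).

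Of 8 genes that act in cell death, 4 were higher in 0P against 0ND and 3 in 8P against 8ND, and none was lower. Over all genes, 15.9% and 13.9% were higher in these contrasts. Bax (chr7:45461697-45466898, minus strand), the BCL-2 family protein that opens the outer mitochondrial membrane, had 9.00, 18.9, 9.26, 9.43 and 11.1 CPM in 8P and 9.68, 11.8, 11.4 and 12.1 CPM in 0P. The ND libraries had 6.91, 7.29, 6.23, 6.94 and 6.16 CPM (8ND) and 5.54, 4.41, 5.68 and 6.82 CPM (0ND). Every P library was above every ND library, and 8P 2 stood apart at the top. Bax was higher in 0P than in 0ND (log2 fold change of 0.99 ± 0.22 (SE), adjusted p = 0.00173) and in 8P than in 8ND (log2 fold change of 0.78 ± 0.20 (SE), adjusted p = 0.00555). Exons of a predicted gene of the same strand cover 12.2% of the exons of Bax, so reads there could not be assigned to Bax alone.

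Aen (chr7:78895854-78911209, plus strand), a nuclease that p53 induces during cell death, had 32.2, 39.7, 33.5, 34.4 and 32.9 CPM in 8P and 25.6, 39.4, 41.2 and 39.5 CPM in 0P, against 25.7, 28.9, 25.3, 19.0 and 19.6 CPM in 8ND and 17.9, 17.99, 22.9 and 16.0 CPM in 0ND. The groups of each dose did not overlap, although 0P 1 lay within the range of 8ND. Aen was higher in 0P than in 0ND (log2 fold change of 0.96 ± 0.17 (SE), adjusted p = 0.000202) and in 8P than in 8ND (log2 fold change of 0.54 ± 0.15 (SE), adjusted p = 0.00995). Pidd1 (chr7:141438113-141444025, minus strand), the scaffold of a complex that activates caspase-2, had 5.81, 7.51, 5.44, 4.78 and 5.57 CPM in 8P and 5.90, 10.1, 9.47 and 5.91 CPM in 0P. It had 4.42, 4.76, 4.29, 4.00 and 4.31 CPM in 8ND and 4.46, 3.00, 3.08 and 2.71 CPM in 0ND, and at either dose every P library was above the ND libraries. The difference was called in 0P against 0ND (log2 fold change of 1.22 ± 0.23 (SE), adjusted p = 0.000469) and not in 8P against 8ND (log2 fold change of 0.41 ± 0.21 (SE), adjusted p = 0.151).

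The BH3-only genes Bbc3 (Puma) and Pmaip1 (Noxa), which trigger the mitochondrial death pathway, gave weaker values. Bbc3 was just called in 0P against 0ND (log2 fold change 0.99, adjusted p = 0.0497), a call lost in 5 of the 8 fits that left out a library (0P 1, 0P 2, 0P 4, 0ND 1 or 0ND 3), and not in 8P against 8ND (0.72, adjusted p = 0.118). Pmaip1 was called in 8P against 8ND (0.76, adjusted p = 0.0301), a call lost in 5 of 10 such fits (8P 3, 8P 4, 8ND 2, 8ND 3 or 8ND 4), and had -0.20 in 0P against 0ND (adjusted p = 0.627). The abundant genes Perp, Ei24 and Trp53inp1 were called in neither contrast, with log2 fold changes of -0.36, 0.094 and 0.048 in 0P and -0.26, -0.094 and 0.31 in 8P. Ei24 encodes a protein of the endoplasmic reticulum membrane.

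Of 3 receptors of the TNF receptor family, 1 was higher and 1 lower in each contrast. Over all genes, 15.9% were higher and 15.7% lower in 0P against 0ND, and 13.9% and 14.3% in 8P against 8ND. Eda2r (chrX:97333840-97377216, minus strand), the receptor for ectodysplasin A2, was measured at 16.6, 17.96, 14.5, 21.7 and 28.7 CPM in 8P and 8.19, 20.2, 23.7 and 27.8 CPM in 0P. It was at 8.43, 8.72, 1.72, 4.00 and 4.31 CPM in 8ND and 2.42, 3.00, 4.26 and 1.95 CPM in 0ND. All libraries of 8P were above all of 8ND and all of 0P above all of 0ND, and 0P 1 and the pair 8ND 1 and 8ND 2 met at about the same level. Eda2r was 6.93-fold higher in 0P than in 0ND (log2 fold change of 2.79 ± 0.44 (SE), adjusted p = 0.000122) and 3.598-fold higher in 8P than in 8ND (log2 fold change of 1.85 ± 0.38 (SE), adjusted p = 0.00131).

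Fas, the death receptor for Fas ligand, was lower in polypoid dysplasia at both doses. It averaged 5.14 ± 0.516 CPM in 8P (SD, n = 5) and 5.67 ± 1.79 CPM in 0P (SD, n = 4), against 8.498 ± 1.62 CPM in 8ND (SD, n = 5) and 9.06 ± 2.63 CPM in 0ND (SD, n = 4). The log2 fold change was -0.69 in 0P against 0ND (adjusted p = 0.0362) and -0.74 in 8P against 8ND (adjusted p = 0.0164). The first call was lost without 0P 2, 0P 4, 0ND 1 or 0ND 2, and the second without 8ND 5. Tnfrsf10b, the mouse receptor for TRAIL, was called in neither contrast, with log2 fold changes of 0.43 (adjusted p = 0.107) and 0.29 (adjusted p = 0.233).

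Of 4 genes of DNA repair and nucleotide supply, 1 was higher and 1 lower in 0P against 0ND, and 2 were higher in 8P against 8ND. Over all genes, 15.9% were higher and 15.7% lower in the first contrast, and 13.9% were higher in the other. Xpc (chr6:91489305-91515888, minus strand), which recognizes damage in nucleotide excision repair, had 29.6, 38.8, 37.6, 41.7 and 32.6 CPM in 8P and 38.7, 36.6, 35.3 and 51.4 CPM in 0P, against 27.8, 21.2, 27.2, 25.6 and 29.4 CPM in 8ND and 28.5, 25.4, 25.8 and 26.6 CPM in 0ND. The P libraries were above the ND libraries, by a narrow margin for 8P 1 over 8ND 5. Xpc was higher in 0P than in 0ND (log2 fold change of 0.61 ± 0.14 (SE), adjusted p = 0.00255) and in 8P than in 8ND (log2 fold change of 0.46 ± 0.13 (SE), adjusted p = 0.0104). The second call was lost without 8ND 1 and 8ND 2 together (0.39, adjusted p = 0.058). Ddb2, the other damage sensor of the same repair pathway, was lower in 0P than in 0ND (log2 fold change -0.48, adjusted p = 0.0125), a call lost without 0ND 4, and was -0.24 in 8P against 8ND (adjusted p = 0.168). Its exons overlap those of Acp2 on the opposite strand over 23.8% of their length. Polk, a polymerase that copies past damaged bases, was higher in 8P than in 8ND (0.51, adjusted p = 0.0158), a call lost without 8P 5, and Rrm2b, a ribonucleotide reductase subunit, was called in neither contrast.

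Of 7 genes of metabolism, signaling and RNA binding, 3 were higher in each contrast and none was lower. These 3 were Phlda3, Ephx1 and Zmat3, while 15.9% of all genes were higher in 0P against 0ND and 13.9% in 8P against 8ND. Phlda3 (chr1:135766119-135769136, plus strand), a small protein that keeps the kinase Akt from the membrane, had 9.07, 12.2, 5.60, 9.78 and 10.9 CPM in 8P and 8.28, 15.1, 12.2 and 13.8 CPM in 0P, against 5.39, 4.76, 2.90, 3.74 and 4.31 CPM in 8ND and 2.68, 4.41, 1.54 and 1.52 CPM in 0ND. Every P library was above every ND library. It was 4.99-fold higher in 0P than in 0ND (log2 fold change of 2.32 ± 0.32 (SE), adjusted p = 2.4e-05) and 2.24-fold higher in 8P than in 8ND (log2 fold change of 1.16 ± 0.27 (SE), adjusted p = 0.00349).

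Ephx1 (chr1:180976210-181020904, minus strand), the microsomal epoxide hydrolase, was steady in the ND libraries and scattered in dysplasia. It had 16.5, 20.03, 9.26, 24.1 and 19.6 CPM in 8P and 14.8, 16.7, 21.8 and 26.7 CPM in 0P, against 10.1, 8.64, 7.51, 10.1 and 9.45 CPM in 8ND and 9.11, 9.52, 8.64 and 9.42 CPM in 0ND. The single P library within the ND range was 8P 3. Ephx1 was higher in 0P than in 0ND (log2 fold change of 1.12 ± 0.23 (SE), adjusted p = 0.00102) and in 8P than in 8ND (log2 fold change of 0.97 ± 0.21 (SE), adjusted p = 0.00182).

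Zmat3 (chr3:32334792-32366014, minus strand), a zinc finger protein that binds RNA, had 71.7, 80.6, 59.7, 75.7 and 100.2 CPM in 8P and 60.2, 83.4, 96.9 and 94.7 CPM in 0P, against 65.7, 69.7, 41.0, 45.9 and 49.5 CPM in 8ND and 36.4, 40.0, 46.7 and 41.8 CPM in 0ND. The 0P and 0ND libraries did not overlap, while 8P 3 fell below 8ND 1 and 8ND 2. It was 2.03-fold higher in 0P than in 0ND (log2 fold change of 1.02 ± 0.18 (SE), adjusted p = 0.000302). In 8P against 8ND it was called (log2 fold change of 0.51 ± 0.16 (SE), adjusted p = 0.025), and the call was lost without 8P 5, 8ND 3, 8ND 4 or 8ND 5. Sesn1, a sestrin that restrains mTORC1, narrowly missed the threshold in the lower direction. Its log2 fold change was -0.48 in 0P against 0ND (adjusted p = 0.0552, without overlap) and -0.42 in 8P against 8ND (adjusted p = 0.0655). The first was called with a minimum count of 30, without 0ND 3, with only the compared groups and with the replicate block. The second was called without 8ND 2, and without 8ND 1 and 8ND 2 together. Tigar (a regulator of glycolysis) and Fdxr (the mitochondrial ferredoxin reductase) were called in neither contrast, nor was the barely detected Gdf15.

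**Figure D3:**
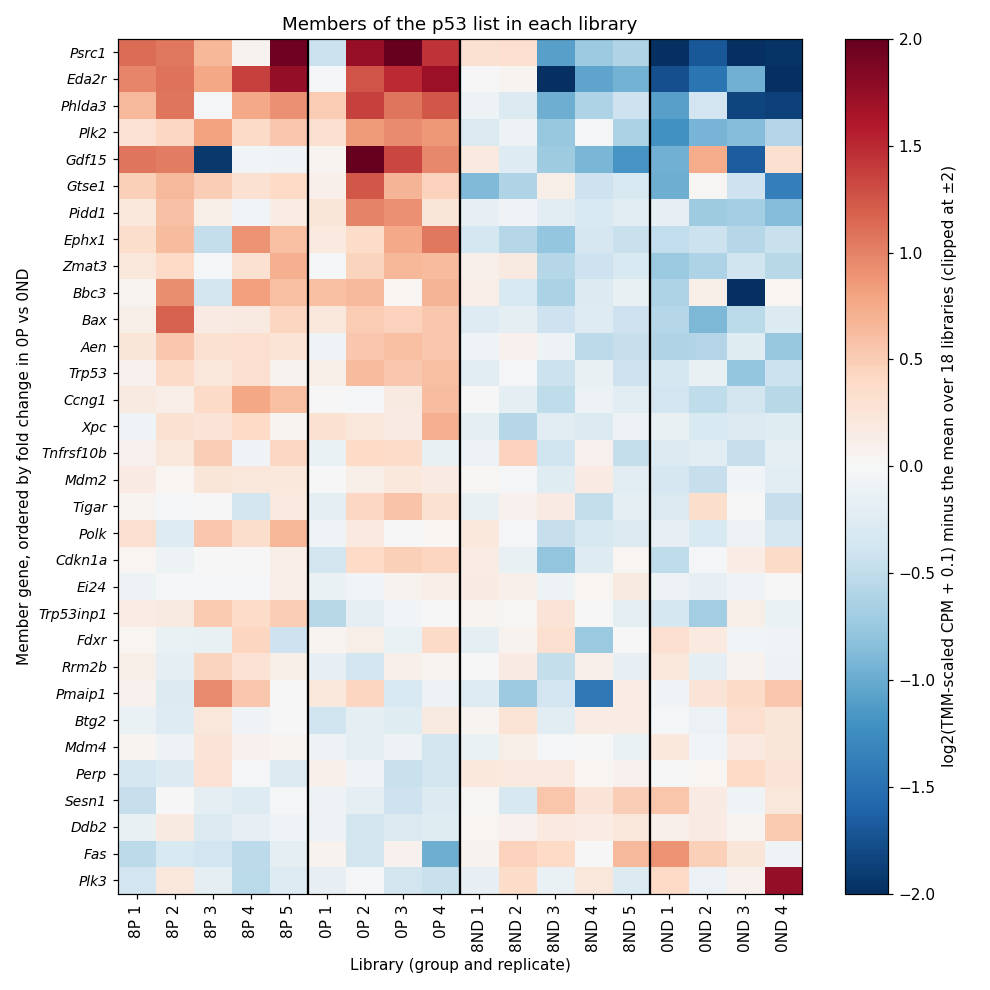
log2(CPM + 0.1) of each of the 32 genes (rows, ordered by the fold change in 0P against 0ND) in each of the 18 libraries (columns), minus the mean of the gene over all libraries and clipped at 2 on either side. Rows from Psrc1 to Trp53 are mostly red in the 9 P libraries and blue in the 9 ND libraries, 0P 1 is paler than the other 0P libraries, and Plk3 is red in 0ND 4.

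The second question was whether the FA dose moved these genes. In non-dysplastic epithelium none of the 32 genes was called in 8ND against 0ND by edgeR (0.0481% of all genes were, 0.0289% higher and 0.0192% lower), 1 was called by DESeq2 and 0 by limma-voom. DESeq2 called 228 higher and 88 lower of all genes, and limma-voom 1 higher and 2 lower. At an unadjusted p below 0.05, 6 were higher and 2 lower, and 9.91% of all genes passed (5.68% higher and 4.23% lower). The median log2 fold change was 0.12, beside 0.0033 over all genes. The gene with the smallest p was Psrc1, at 2.47 to 6.82 CPM in 8ND, against 1.07 to 1.59 CPM in 0ND. Every 8ND library was above every 0ND library, and 8ND 1 and 8ND 2 were the highest (2.15% of all genes were higher without overlap and 1.8% lower). The difference was not called (log2 fold change of 1.82 ± 0.51 (SE), adjusted p = 0.171). With 203 reads over all 8ND and 50 over all 0ND libraries, this was the gene that DESeq2 called (1.81, adjusted p = 0.0161). Plk2 (log2 fold change of 0.54 ± 0.18 (SE), adjusted p = 0.262) and Pmaip1 (log2 fold change of -0.72 ± 0.26 (SE), adjusted p = 0.337) followed. Pmaip1 had 24.9, 17.8, 22.6, 10.9 and 32.7 CPM in 8ND, against 28.3, 35.4, 38.5 and 43.1 CPM in 0ND, and only 8ND 5 reached into the 0ND range. Trp53 (log2 fold change 0.17 ± 0.14, adjusted p = 0.769), Mdm2 (0.20 ± 0.10, adjusted p = 0.564) and Cdkn1a (-0.20 ± 0.19, adjusted p = 0.819) overlapped between the doses. Summed fibroblast markers were at 1177 to 1335 CPM in 8ND, against 940.4 to 1025 CPM in 0ND, without overlap. The summed levels of the other cell type lists overlapped, and edgeR called no marker. The part of these cell types in the dose values was not tested.

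Within polypoid dysplasia, none of the 32 genes was called in 8P against 0P by edgeR, DESeq2 or limma-voom, and edgeR called 0% of all genes. DESeq2 called 9 higher and 11 lower of all genes, and limma-voom 0. At an unadjusted p below 0.05, 2 were higher and none lower, while 10.1% of all genes passed (5.59% higher and 4.47% lower). The median log2 fold change was -0.03, beside 0.0053 over all genes. Trp53inp1 (chr4:11156431-11174379, plus strand) had the smallest p. It was measured at 278, 283, 358, 321 and 352 CPM in 8P, against 170.0, 218, 241 and 249 CPM in 0P, and the groups did not overlap (log2 fold change of 0.54 ± 0.15 (SE), adjusted p = 0.434). Of all genes, 1.36% were higher without overlap and 0.89% lower. In the ND libraries it had 261, 254, 298, 252 and 218.7 CPM in 8ND and 195, 155, 272 and 228 CPM in 0ND, with overlap (log2 fold change of 0.27 ± 0.15 (SE), adjusted p = 0.586). Mdm4 (log2 fold change of 0.26 ± 0.10 (SE), adjusted p = 0.465) was the other gene with an unadjusted p below 0.05, and Pidd1 (log2 fold change of -0.43 ± 0.21 (SE), adjusted p = 0.5) came next. Trp53 (-0.27 ± 0.14, adjusted p = 0.506), Mdm2 (0.054 ± 0.10, adjusted p = 0.874) and Cdkn1a (-0.25 ± 0.19, adjusted p = 0.633) were not called, and for Trp53 the library 0P 1 lay within the 8P range while the other 3 were above it.

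**Figure D4:**
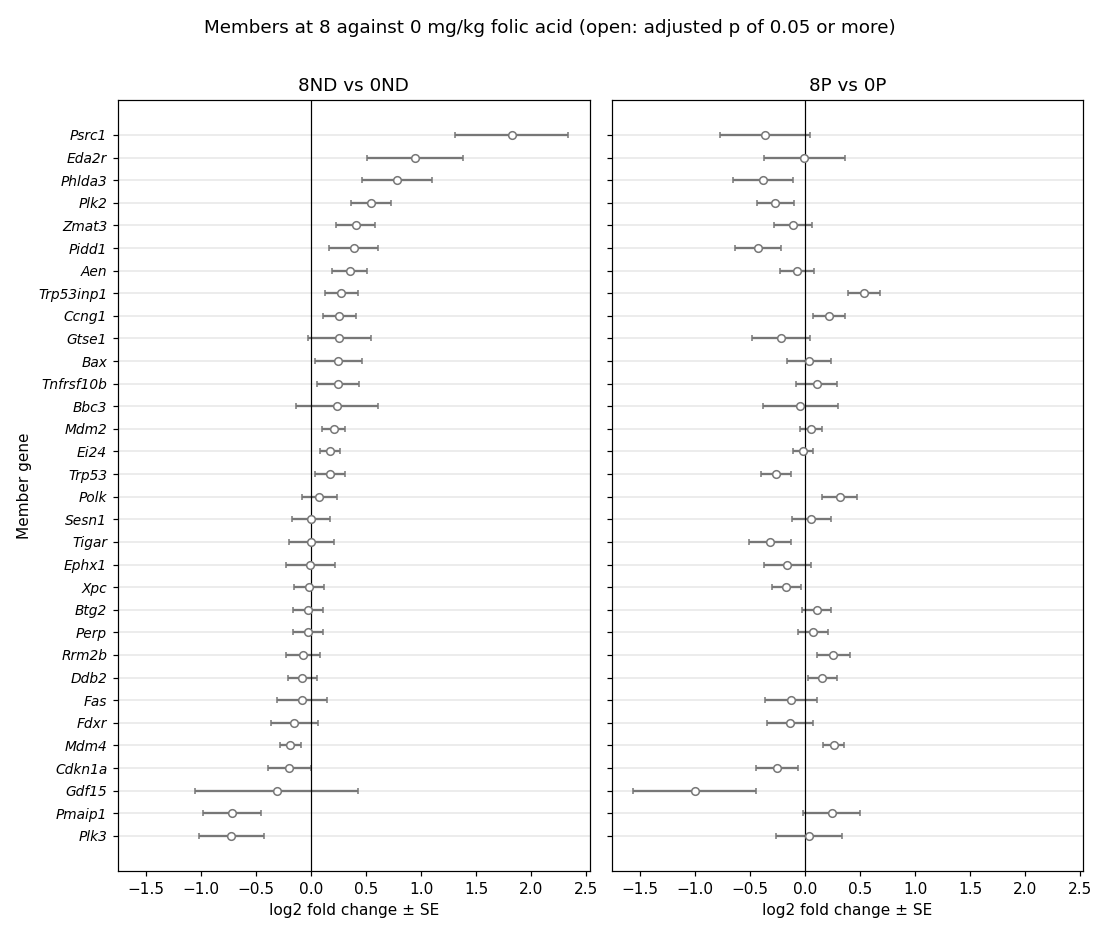
log2 fold change ± SE of each of the 32 genes in 8ND against 0ND (left) and 8P against 0P (right), ordered by the value on the left; open points have an adjusted p of 0.05 or more. No point is filled, and the values farthest from 0 are Psrc1 on the left (1.82) and the barely detected Gdf15 on the right (-1.003).

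Whether the FA dose acted differently in dysplasia and in non-dysplastic epithelium was tested as the dose effect in P minus that in ND, which is also the dysplasia effect at 8 mg/kg minus that at 0 mg/kg. None of the 32 genes was called by edgeR, DESeq2 or limma-voom, and edgeR called 0% of all genes. DESeq2 called 10 positive and 72 negative of all genes, and limma-voom 0. At an unadjusted p below 0.05, 2 were positive and 6 negative, while 10.4% of all genes passed (5.1% positive and 5.3% negative). The smallest p-values were those of Mdm4 (log2 difference of 0.45 ± 0.14 (SE), adjusted p = 0.316), Psrc1 (log2 difference of -2.19 ± 0.65 (SE), adjusted p = 0.316) and Plk2 (log2 difference of -0.81 ± 0.25 (SE), adjusted p = 0.316). The difference of Trp53 was -0.44 ± 0.19 (adjusted p = 0.453), of Mdm2 -0.15 ± 0.15 (adjusted p = 0.745) and of Cdkn1a -0.052 ± 0.27 (adjusted p = 0.968). The lower dysplasia fold changes of Psrc1, Phlda3 and Plk2 at 8 mg/kg than at 0 mg/kg FA were therefore not shown to differ between the doses.

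Other genes of the pathway were counted from lists outside the 32. Of 21 tested p53 regulators and partners, 4 were higher and 1 lower in 0P against 0ND, and 5 were higher and none lower in 8P against 8ND, 23.8% called in each, beside 31.6% and 28.2% of all tested genes in these contrasts. Cdkn2a, whose p19Arf product binds Mdm2 and so stabilizes p53, averaged 4.38 ± 1.34 CPM in 8P and 5.87 ± 2.32 CPM in 0P, against 1.12 ± 0.749 CPM in 8ND and 0.161 ± 0.109 CPM in 0ND (SD, n = 5, 4, 5 and 4). The last rests on 7 reads in all, so the fitted log2 fold change of 0P against 0ND (4.95, adjusted p = 9.41e-06) depends on few reads, while that of 8P against 8ND was 2.02 (adjusted p = 0.00207). The same gene also encodes p16Ink4a, and gene counts do not separate the products. Trp53bp1, a protein of double-strand break repair that binds p53, was higher in 0P (0.50, adjusted p = 0.00187) and in 8P (0.64, adjusted p = 0.000114).

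Of 35 other tested p53 targets, 13 were higher and 3 lower in 0P against 0ND (45.7% called, beside 31.6% of all genes), and 12 were higher and 3 lower in 8P against 8ND (42.9%, beside 28.2% of all genes). Bcl2l11 (Bim), a BH3-only death gene, had log2 fold changes of 1.36 (adjusted p = 1.12e-05) and 1.29 (adjusted p = 1.24e-05), and Casp6, an executioner caspase, 1.75 (adjusted p = 3.43e-06) and 0.98 (adjusted p = 0.000274). Trp53i11 was lower in both contrasts, in 0P against 0ND (-1.40, adjusted p = 0.000101) and in 8P against 8ND (-1.44, adjusted p = 4.36e-05). Of 22 cell cycle genes that p53 is known to repress through p21 and the DREAM complex, 16 were higher in 0P than in 0ND (72.7%) and 7 in 8P than in 8ND (31.8%), and none was lower in either, while 15.9% and 13.9% of all genes were higher. Top2a, the topoisomerase of dividing cells, averaged 232 ± 35.4 CPM in 8P and 263 ± 51.2 CPM in 0P, against 146 ± 16.1 CPM in 8ND and 133 ± 39.2 CPM in 0ND (SD, n = 5, 4, 5 and 4). In the dose comparisons and in their difference, edgeR called none of the genes of these 3 lists. Epha2, one of the other p53 targets, had a log2 fold change of 0.85 in 8ND against 0ND (adjusted p = 0.157). The authors reported it as higher in that comparison with DESeq2. The calls of DESeq2 in these lists are not given here.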

How the data were processed

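The authors aligned the reads with Bowtie to mm10 and deposited whole-number read counts per gene from HTSeq (versions and strand setting not given in the sources used here). Of the reads in the tables, 22.0 to 40.7% lay in no feature, 40.1 to 62.2% aligned at several places and 0.220 to 0.384% were ambiguous. The lines that name no gene were left out. Without molecular identifiers, PCR copies are counted as reads.

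Counts were tested with edgeR 4.0.16 (R 4.3.3): filterByExpr (minimum count 10), TMM scaling, and 1 quasi-likelihood fit of the 4 groups over all 18 libraries, with Benjamini-Hochberg adjustment over 20787 genes and a threshold of 0.05. The square root of the common dispersion was 0.261. DESeq2 1.42.0, limma 3.58.1, RLE scaling, other filters, a 2-fold minimum, libraries left out, fits of the compared groups alone and a replicate block were alternatives. The edgeR, DESeq2 and limma-voom fits were tested on simulated counts, for 0P against 0ND, 8P against 8ND and 8ND against 0ND. The motif search was tested on a sequence with an implanted site. The 32 genes, the other lists and the roles were chosen with earlier results of these data known. Full statistics are given for Trp53, Cdkn1a and Mdm2 and for up to 8 called genes with the smallest p in each comparison, or 3 where none was called; statistics of other members were added after their values were seen. From each other list, up to 4 genes with the smallest p in a comparison may be named. Positions and exon lengths are from GENCODE M21 (mm10), and promoters from RefSeq (GRCm38.p6). Of 32 within-group library pairs, none agreed within sampling noise (lowest chi-square per gene 9.295).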

Additional observations from a re-analysis of the deposited data

Results flagged for a closer look

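In 5 of the 128 gene and group combinations of the 32 genes (groups of 4 or 5 libraries), the highest or lowest library lay farther from its nearest neighbor than Dixon's 95% limit allows. Chance alone gives about 1 such library in 20 groups. Cdkn1a was at 44.8 CPM in 0P 1, against 76.5 to 80.5 CPM in the other 0P libraries, and Aen, the p53-induced nuclease, was at 25.6 CPM in the same library, against 39.4 to 41.2 CPM in the others. Bbc3 (Puma) was at 4.66 CPM in 0P 3, against 6.96 to 7.34 CPM in the other 0P libraries. Bax was at 18.9 CPM in 8P 2, where the other 8P libraries held 9.00 to 11.1 CPM. Plk3 was at 32.7 CPM in 0ND 4, where the other 0ND libraries held 8.82 to 12.6 CPM.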

How the results depend on the processing

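With RLE scaling, no filter or a stricter filter on low counts, limma-voom, only the compared groups in the fit, or any library left out, the number of the 32 genes called stayed within 1.5 times its value: 16 to 20 in 0P against 0ND (19 called), 12 to 16 in 8P against 8ND (15 called), and 0 in both dose comparisons and their difference. Among single genes, Ddb2, Fas and Mdm4 lost the call in 0P against 0ND without a filter on low counts, as did Pmaip1 and Psrc1 in 8P against 8ND, and Psrc1 also lost it there with limma-voom. DESeq2 called 1 gene, Psrc1, in 8ND against 0ND where edgeR called 0. Over all genes, DESeq2 called 228 higher and 88 lower in 8ND against 0ND, where edgeR called 6 and 4, and 9 higher and 11 lower in 8P against 0P, where edgeR called none. For the difference between the dose effects, DESeq2 called 10 positive and 72 negative, where edgeR called none. With a 2-fold minimum, 8 genes remained in 0P against 0ND and 3 in 8P against 8ND. The difference of Cdkn1a between the dose effects changed sign with single libraries (-0.21 to 0.097) and was 0.083 without 8ND 1 and 8ND 2, far from any call. For the 39 log2 fold changes that got full statistics by rule (Trp53, Cdkn1a, Mdm2 and the genes with the smallest p in each comparison), 679 other values kept their side of the threshold, 4 gained a call (Psrc1 in 8ND against 0ND and Mdm2 in 8P against 8ND) and 1 lost it (Xpc in 8P against 8ND). Among called genes outside that rule, leaving out 1 library lost the call of Bbc3 in 5, Fas in 4, Plk3 in 3 and Ddb2 and Mdm4 in 1 of 8 fits of 0P against 0ND, and of Pmaip1 in 5, Zmat3 in 4, Psrc1 in 3 and Fas and Polk in 1 of 10 fits of 8P against 8ND. The cause was not tested. With the replicate number as a block, 18 genes were called in 0P against 0ND. Gdf15 (higher) and Sesn1 (lower) were gained, and Ddb2, Mdm4 and Plk3 were lost. The block gave 13 called genes in 8P against 8ND (losing Pmaip1 and Polk) and 0 in the dose comparisons. Same-numbered libraries were compared by their deviations, meaning log2 CPM minus the group mean of each gene. These deviations correlated at 0.026 to 0.20 in 0P and 0ND, where 3 of 4 fitted their own number best. In 8P and 8ND they correlated at -0.079 to 0.27, where 2 of 5 did, so the numbers were not shown to pair the libraries. Depth limits Gdf15 (17 reads over all 8ND libraries) and Psrc1 in 0ND (50 reads) most.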
